A study of Mus musculus with 8 samples.

Results

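Scn7a, Piezo1, Piezo2 and Trpv4 are the 4 ion channel genes described here, of 33027 genes counted in single cells of mouse lung. The set was chosen by the levels of Scn7a and Piezo2 in general capillary endothelial cells (gCap), which were higher in smoke-exposed mice, so the difference in gCap cells is given below as a description with no test. The lungs came from 8 C57BL/6 mice of both sexes that all carried the Sftpc-CreERT2 and mTmG reporter alleles, a Cre driven by the surfactant protein C promoter of alveolar type 2 cells, and that all received tamoxifen at 8 to 10 weeks of age. The CS group was 4 mice (C2, C5, D2 and D5) that breathed cigarette smoke for 10 months, and the RA group was 4 mice (F1, F3, M1 and M3) kept in room air for the same time. Red cells were lysed, and CD45+ cells were depleted with microbeads and mixed back to leave 90% CD45- cells, so the numbers of cells per type do not give the makeup of the lung.

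Piezo1 and Piezo2 encode large trimeric cation channels that open when the membrane is stretched or sheared. Piezo1 is the best known shear sensor of blood vessels, while Piezo2 is best known as the touch channel of sensory neurons and Merkel cells. Trpv4 encodes a calcium-permeable channel of the vanilloid TRP family that responds to warmth, swelling and arachidonic acid products and is known in lung for raising endothelial permeability. Scn7a encodes the atypical sodium channel Nax, a relative of the voltage-gated sodium channels that lacks their usual voltage gating and is known as a sodium sensor in the brain. In the alveolar wall 2 kinds of capillary cell lie side by side: gCap cells, which act as the stem-like capillary cells, and aerocytes, the large thin cells over which gas exchange takes place.

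All 4 genes are written on the minus strand of GRCm38. Scn7a lies on chromosome 2 from 66673425 to 66784914, Trpv4 on chromosome 5 from 114622152 to 114658421, and Piezo1 on chromosome 8 from 122481698 to 122551329. Their spans in the GENCODE M21 annotation are 111490 bases for Scn7a, 36270 for Trpv4, 69632 for Piezo1 and 376971 for Piezo2, and annotated exons cover 6.58%, 11.2%, 14.3% and 4.55% of them. The deposited counts sum spliced and unspliced transcripts. The whole of Piezo1 is overlapped on the opposite strand by the gene model Gm20388, which has its own row in the matrix at 4.84 transcripts per 10,000 in gCap cells. The strand setting of the counting is not given in the sources used here, so reads of Piezo1 and of Gm20388 may not be fully told apart.

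The promoter of Scn7a, which was higher in gCap cells of CS mice, and that of Piezo1, which was not, are shown from RefSeq on GRCm38.p6, each as the 300 bases around the start, read on the minus strand. Capitals mark, on both strands, the motifs GGAAG (the core of ETS factor sites), CACCC (the box that KLF factors bind) and CACGTG (an E-box).
Scn7a, chr2:66784861-66785160: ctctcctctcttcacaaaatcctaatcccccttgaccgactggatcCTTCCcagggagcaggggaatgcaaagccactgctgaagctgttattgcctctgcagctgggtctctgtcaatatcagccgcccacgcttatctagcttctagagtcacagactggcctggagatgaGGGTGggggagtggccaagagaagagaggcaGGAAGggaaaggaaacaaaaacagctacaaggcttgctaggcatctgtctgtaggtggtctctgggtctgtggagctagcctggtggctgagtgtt
Piezo1, chr8:122551280-122551579: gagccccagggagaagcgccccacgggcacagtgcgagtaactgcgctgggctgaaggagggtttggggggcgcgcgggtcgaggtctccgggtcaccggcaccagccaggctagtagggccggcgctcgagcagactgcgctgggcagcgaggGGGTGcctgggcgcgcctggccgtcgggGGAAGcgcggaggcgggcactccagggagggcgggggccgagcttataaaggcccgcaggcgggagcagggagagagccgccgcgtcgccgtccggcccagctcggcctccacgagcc

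The Scn7a window held GGAAG at 2 places and CACCC at 1 place, with a GC content of 54%. The Piezo1 window held each of these motifs at 1 place, with a GC content of 75%, and neither window held CACGTG. Of 32851 mouse promoter windows of this length, 71.4% held GGAAG, 57.5% held CACCC and 7.15% held CACGTG, so the first 2 motifs are common letters in such windows. Piezo1, Scn7a and Trpv4 matched a RefSeq window, and that of Trpv4 held GGAAG at 1 place and CACCC at 5.

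The 8 libraries held 2553 to 6371 cells each, 40074 in all, with 31094695 to 52753531 transcripts per library. The gCap cells (9988) carried the highest mean level of their marker Gpihbp1 (12.3 per 10,000), and aerocytes (4240) that of Car4 (27.5). Arterial (730 cells), venous (1665) and lymphatic (512) endothelial cells were highest in Gja5, Slc6a2 and Prox1 (1.51, 15.9 and 11.5). The sex labels of all 4 CS mice went against their transcripts: C2 and C5, labelled male, held Xist at 7.83 and 8.34 per 10,000, while the Y-linked Ddx3y stood at 0.925 and 1.08 in D2 and D5, whose label was female. The RA labels matched. The RA mouse F1 stood apart in the results below, and its gCap cells had the lowest median depth of the 8 mice (3024 transcripts against 5226 in the deepest RA mouse). Each sequencing lane held 1 CS and 1 RA mouse. Pairs of libraries shared 1 to 14 cell barcodes, and 197 of 40909 barcodes were seen in more than 1 library.

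Levels are given as transcripts per 10,000 transcripts of a cell, averaged over the cells of a type in 1 mouse, so that each mouse gives 1 value. Of the 4 genes, Scn7a, Piezo2 and Trpv4 had their highest level in aerocytes and Piezo1 in venous endothelial cells, over the 22 cell types that had at least 20 cells in at least 3 mice of each group. The authors clustered and named the cells on their transcripts. Whether these genes were among those used is not given in the sources used here. The order of types is therefore a description without a test.

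Scn7a averaged 13.1 ± 4.53 (SD, n = 8 mice) per 10,000 in aerocytes and 6.16 ± 3.14 in gCap cells, a gap beyond the spread of either. Alveolar fibroblasts, with 3.19 ± 0.44, did not differ from gCap cells beyond this spread, which holds the difference between the groups: gCap cells of CS mice (7.84 to 9.64) all lay above alveolar fibroblasts (3.18 to 3.89), while in RA mice the 2 types overlapped (1.28 to 4.56 and 2.55 to 3.20). Adventitial fibroblasts followed at 2.29 ± 0.219. Venous endothelial cells (0.762 ± 0.514), peribronchial fibroblasts (0.695 ± 0.415, n = 6) and arterial endothelial cells (0.396 ± 0.289) came next, lower than the adventitial fibroblasts but with no gap beyond the spread among them. Aerocytes and gCap cells together gave most of the Scn7a transcripts, 44.4% and 42.5% of those in CS mice and 39.0% and 35.5% of those in RA mice, shares that depend on how many cells of each type were loaded.

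Piezo2, on chromosome 18 from 63010213 to 63387183, was steeper. It stood at 17.0 ± 4.22 (SD, n = 8 mice) in aerocytes, then at 3.02 ± 1.17 in gCap cells and 2.64 ± 1.11 in venous cells, which did not differ beyond their spread. Lymphatic (1.12 ± 0.365) and arterial (0.596 ± 0.331) endothelial cells and mesothelium (0.421 ± 0.189, n = 7) followed. The 84 pulmonary neuroendocrine cells, a sensory airway cell type with too few cells per mouse to enter this order or be tested, held Piezo2 at 22.6 ± 7.35, from 11.4 in the lowest mouse to 34.2 in the highest. Aerocytes alone gave 62.5% of Piezo2 transcripts in CS mice and 57.1% in RA mice.

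Piezo1 was spread widely, with its highest level in venous endothelial cells (3.68 ± 0.465, SD, n = 8 mice) and then in mesothelium (2.87 ± 0.424, n = 7). Lymphatic (2.36 ± 0.241) and gCap cells (2.16 ± 0.242), nonclassical monocytes (1.99 ± 0.307, n = 7), alveolar type 1 cells (1.87 ± 0.254), arterial cells (1.76 ± 0.162) and alveolar macrophages (1.67 ± 0.65) formed a run in which no neighbours differed beyond their spread. Aerocytes, where Piezo2 was highest, held Piezo1 at 0.886 ± 0.106. Trpv4 was scarce, with 0.531 ± 0.0939 in aerocytes and 0.452 ± 0.123 in venous cells, which did not differ beyond their spread, and 0.137 ± 0.0502 in gCap cells. The 192 basal airway cells, too few per mouse to be tested, held Trpv4 at 1.23 ± 0.155.

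**Figure D1:**
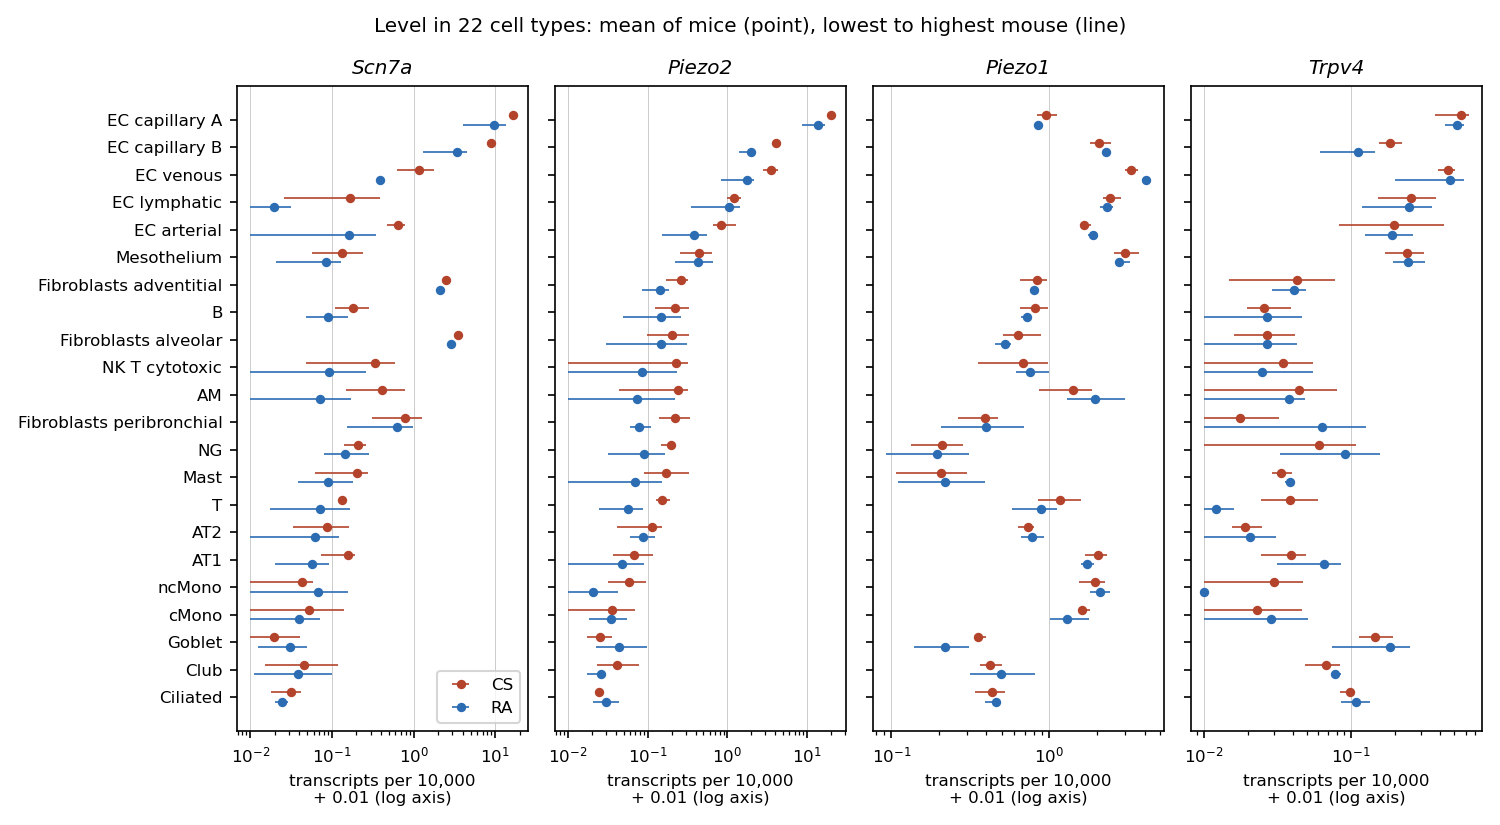
Level of Scn7a, Piezo2, Piezo1 and Trpv4 (transcripts per 10,000, plus 0.01, log axis) in 22 cell types, ordered by Piezo2. Points are means of the CS (red) or RA (blue) mice and lines run from the lowest to the highest mouse; Piezo2 was highest in aerocytes (EC capillary A, 17.0) and Piezo1 in venous endothelial cells (3.68).

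Across the 22 types, the genes whose log2 level tracked Scn7a most closely among 14931 genes were Raver2, Mapt and Stard9 (Pearson's r = 0.92, 0.91 and 0.90). Those most like Piezo2 were Gm9917, Sema7a and Prx (r = 0.98, 0.97 and 0.97), all highest in aerocytes, and Prx encodes periaxin. Those most like Trpv4 were Sema3f, Zbtb46 and Kdr (r = 0.90, 0.89 and 0.87), Kdr being the main VEGF receptor, and those most like Piezo1 were Gm10039, Trim41 and Zfp326 (r = 0.79, 0.75 and 0.75). Between members, Piezo2 had r = 0.84 with Trpv4, 0.79 with Scn7a and 0.32 with Piezo1. These are descriptions over 22 types that share their libraries, and of these 3 genes for each channel the rank correlation also placed 0 for Scn7a, 1 for Piezo1, 0 for Piezo2 and 1 for Trpv4 among its own 3.

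In gCap cells, Scn7a was 9.64, 7.84, 9.64 and 8.47 per 10,000 in CS mice C2, C5, D2 and D5, and 1.28, 3.59, 4.56 and 4.22 in RA mice F1, F3, M1 and M3. All 4 CS mice lay above all 4 RA mice, and F1 was the lowest. The means were 8.90 ± 0.896 and 3.41 ± 1.48 (SD, n = 4), a ratio of 2.61, and the difference was 1.24 (SE 0.247) on the scale of log2(level + 1). Without F1 it was 0.95, and leaving out any other mouse it stayed at or below 1.38.

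Piezo2 in gCap cells was 4.47, 4.14, 3.90 and 3.77 per 10,000 in the CS mice and 1.41, 2.20, 2.27 and 2.0 in the RA mice, in the same order. Again no CS mouse overlapped an RA mouse, and F1 was lowest. The means were 4.07 ± 0.307 and 1.97 ± 0.392 (SD, n = 4), a ratio of 2.06 and a log2 difference of 0.78 (SE 0.103).

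Piezo1, the other member of the Piezo family, did not stand higher in CS. Its level in gCap cells was 1.79, 2.46, 2.0 and 1.94 in the CS mice and 2.38, 2.21, 2.39 and 2.15 in the RA mice, so the groups overlapped. Its log2 difference was -0.11 (SE 0.0758). Trpv4 was found in 7.09% of gCap cells of CS mice and 4.50% of those of RA mice, under the 10% of cells needed to enter the test of all genes. Its levels were 0.165, 0.168, 0.213 and 0.146 against 0.0511, 0.132, 0.136 and 0.0864, which did not overlap, with a log2 difference of 0.09 (SE 0.0299).

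These gCap differences chose the set, and nothing is read from them beyond their size. In the fit of all 6556 genes of gCap cells with limma and Benjamini-Hochberg adjustment, 6.28% of genes were higher in CS at an adjusted p under 0.05, and for 13.6% every CS mouse lay above every RA mouse.

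**Figure D2:**
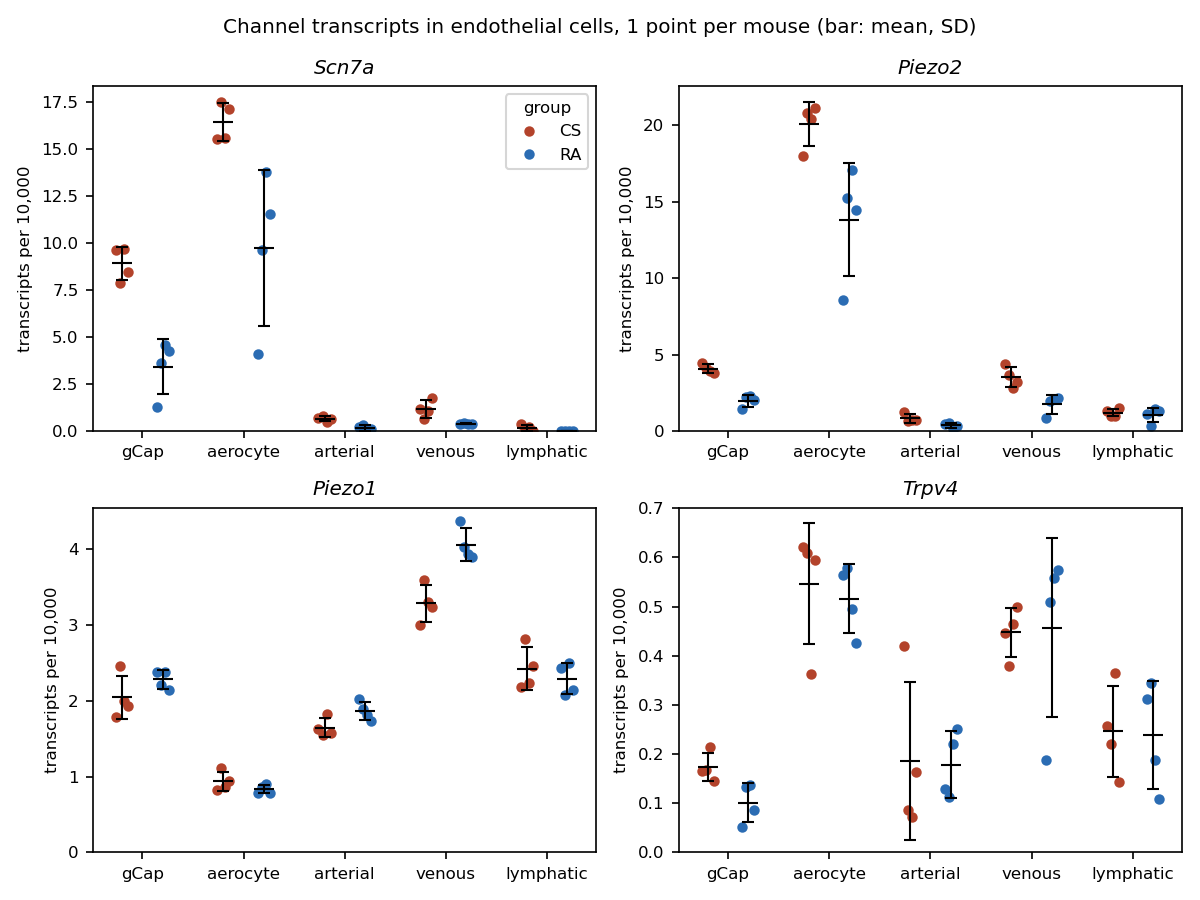
Level of each channel (transcripts per 10,000, axis from 0) in 5 endothelial types, 1 point per mouse, CS in red and RA in blue, with the mean and SD of 4 mice in black. Scn7a in gCap cells runs from 7.84 to 9.64 in CS mice and from 1.28 to 4.56 in RA mice, whereas Piezo1 in gCap cells overlaps between the groups.

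Both the share of gCap cells with the transcripts and the mean number of transcripts in those cells were higher in CS mice. After every cell was thinned to 2000 transcripts, which left out 368 CS and 473 RA gCap cells of lower depth, Scn7a was found in 68.0% ± 3.19 of CS cells and 38.3% ± 14.3 of RA cells (SD, n = 4). At full depth the shares were 82.2% ± 1.28 and 56.1% ± 20.1, at median depths of 3938 and 3713 transcripts. Among thinned cells that held Scn7a, the mean was 2.59 ± 0.156 transcripts in CS and 1.66 ± 0.225 in RA mice. Cells with 3 or more Scn7a transcripts made up 23.4% to 29.3% of gCap cells in CS mice and 1.40% to 9.51% in RA mice.

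Piezo2 was found in 48.0% ± 3.60 of thinned CS gCap cells and 28.4% ± 6.15 of RA cells, and at full depth in 65.7% ± 5.07 and 44.6% ± 11.0. Cells with both channels made up 34.7% ± 2.73 of CS cells and 13.6% ± 6.87 of RA cells, against 32.6% ± 2.45 and 11.6% ± 5.77 if the 2 channels were found independently of each other. The 2 channels were thus found together slightly more often than their separate shares would give. In B cells, which should lack both genes, the thinned shares were 2.51% ± 1.22 (CS) and 0.528% ± 0.362 (RA) for Scn7a and 3.31% ± 1.94 and 1.10% ± 0.587 for Piezo2, at median depths of 4149 and 3943 transcripts. These background shares, which free RNA can give, were also higher in CS on average. The part of free RNA in the gCap shares was not tested.

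**Figure D3:**
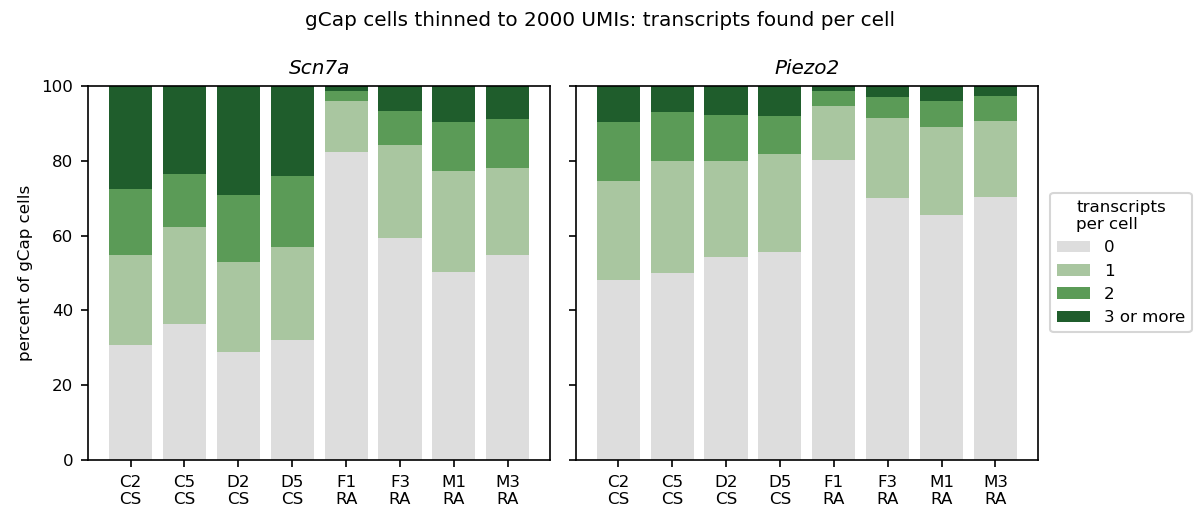
Share of gCap cells (percent, per mouse) that held 0, 1, 2 or 3 or more transcripts of Scn7a or Piezo2 after each cell was thinned to 2000 transcripts. Cells with 3 or more Scn7a transcripts range from 23.4% to 29.3% in the CS mice and from 1.40% to 9.51% in the RA mice.

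Other measures moved with the groups in gCap cells. A list of 9 genes, here called the digestion response, holds among others the immediate-early genes Atf3, Jun and Junb. Whether tissue digestion raised them here was not tested. They summed to 41.0 to 71.4 per 10,000 in CS mice and 86.9 to 115 in RA mice, with F1 the highest. All 9 were lower in CS, and 3 (Atf3, Jun and Junb) passed the test. The 5 gCap markers summed to 26.9 to 31.4 in CS and 35.3 to 45.9 in RA mice, with F1 the highest and 38.6 the next. Of the 5, 2 were higher and 3 lower in CS, and 1 (Plvap) passed the test. The 4 pan-endothelial markers summed to 63.6 to 76.2 in CS and 75.0 to 84.0 in RA mice. Of these 4, 2 were higher and 2 lower in CS, and 1 (Cldn5) was called. The 4 arterial markers, all higher in CS but none called, summed to 2.21 to 2.77 and 1.01 to 2.31. Atf3, Jun, Junb, Plvap and Cldn5 were not called with the sequencing lane as a block or without D5, where no gene of gCap cells was. The 5 aerocyte markers, genes of the type where Scn7a and Piezo2 were highest, summed to 1.30 to 2.12 in CS and 1.86 to 2.06 in RA gCap cells. In the 5981 gCap cells that held no aerocyte marker, the log2 difference was 1.19 for Scn7a and 0.69 for Piezo2. The 6 fibroblast markers summed to at most 0.180 in CS and 0.304 in RA gCap cells, and the 4 Schwann cell markers to at most 0.0798 and 0.0867. The part of the digestion response in the channels' difference was not tested.

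The difference between groups followed the span of a gene, and the part of unspliced transcripts in this was not tested. In gCap cells the median log2 difference was -0.08 over 1310 genes with a span of up to 10 kb, 0.05 over 2197 genes of over 30 to 100 kb, 0.12 over 735 genes of over 100 to 200 kb and 0.17 over 416 genes of over 200 kb. The share of genes called higher in CS was 0.305%, 7.87%, 16.7% and 18.5% in these classes. Medians over the genes above 200 kb were 0.15 in aerocytes, 0.15 in arterial, 0.14 in venous and 0.12 in lymphatic cells, 0.15 in B cells and 0.01 in alveolar type 2 cells. Among the 8 mice, F1 had the lowest value of these long genes in gCap cells (-0.21 from the mean of all mice, on the log2 scale, against -0.06 to 0.13 in the others). With the log2 values centred within span classes, the differences in gCap cells were 1.11 for Scn7a, 0.61 for Piezo2 and -0.17 for Piezo1.

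**Figure D4:**
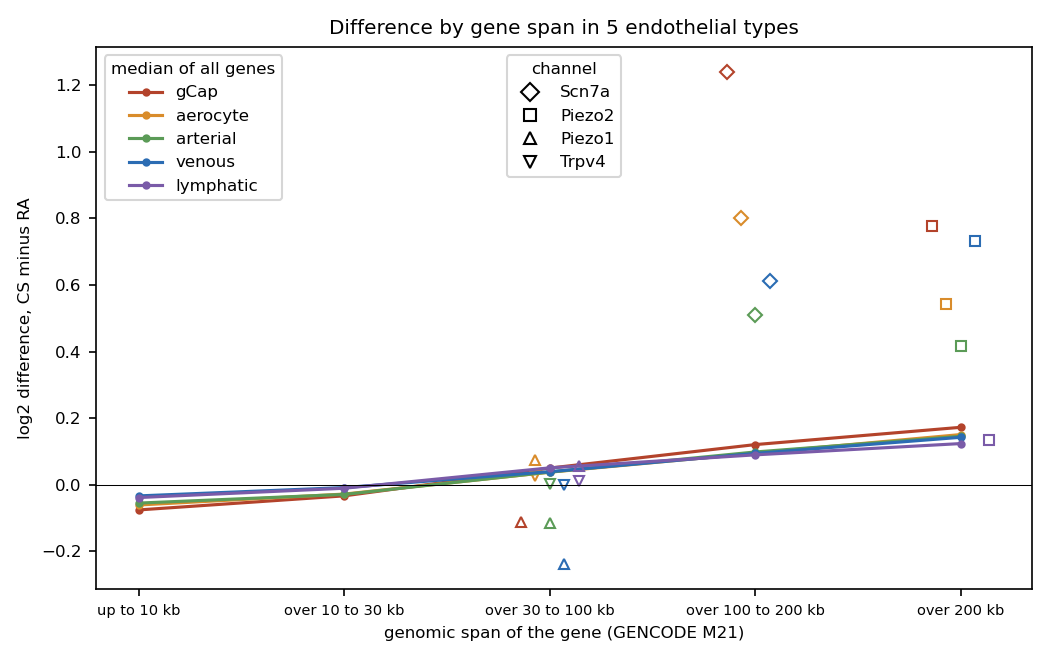
Log2 difference (CS minus RA) against the genomic span of genes in 5 classes. Lines join the medians of all genes tested in each of 5 endothelial types, and open symbols are the channels; the gCap median rises from -0.08 to 0.17 across the classes, and Scn7a in gCap cells lies at 1.24.

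The rule did not use the channels' values in endothelial cells other than gCap. All cell types come from the same 8 mice that chose the set, so tests in the other types are not independent of that choice. Over 21 cell types, 0.873% of all gene tests were called at an adjusted p under 0.05 in either direction. The channels were tested 39 times there and called once, for Scn7a in arterial endothelial cells, where it had entered the test only through the CS group. An unadjusted p under 0.05 was found in 10 of the 39 tests, beside 14.4% of all gene tests in these types, a share that was higher in some endothelial types (1684 of 6876 genes in aerocytes). Nothing particular to the channels is read from these counts.

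In aerocytes Scn7a was 15.5, 17.5, 15.6 and 17.1 per 10,000 in the CS mice and 4.07, 9.62, 13.7 and 11.5 in the RA mice, again with no overlap and with F1 lowest. The log2 difference of 0.80 (SE 0.264) did not pass the test (limma, adjusted p = 0.113). Since the groups did not overlap, leaving out 1 mouse could not turn its sign. The difference rested in size on F1: without that mouse it was 0.47 (limma, adjusted p = 0.0399). Piezo2 in aerocytes was 18.0, 20.8, 20.4 and 21.1 against 8.56, 15.3, 17.0 and 14.5, also without overlap. Its log2 difference was 0.54 (SE 0.178, limma, adjusted p = 0.112), and 0.34 without F1 (adjusted p = 0.0583). F1 also stood apart in other measures of aerocytes. The digestion response summed to 72.8 there, with 52.9 the next highest RA value, and to 35.0 to 45.0 in the CS mice. The 5 gCap markers summed to 3.66 in F1, with 1.08 the next highest RA value, and to 0.418 to 0.899 in the CS mice. Their part in the aerocyte differences was not tested. For 8.71% of the 6876 genes tested in aerocytes every CS mouse lay above every RA mouse, and 0.974% were called higher. Both channels belonged to the former and neither to the latter. Piezo1 (log2 difference 0.07, SE 0.0556) and Trpv4 (0.03, SE 0.0598) overlapped between groups in aerocytes.

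In venous endothelial cells Scn7a was 1.15, 0.625, 1.03 and 1.77 in the CS mice and 0.343, 0.414, 0.370 and 0.392 in the RA mice. The lowest CS mouse, C5, was still above the highest RA mouse, and the log2 difference was 0.61 (SE 0.124, limma, adjusted p = 0.0953). With sex taken from the transcripts as a term, or without C5, the adjusted p (limma) was 0.0354 and 0.0447. It rose as high as 0.377 in another setting and 0.251 with another mouse left out, so passing hung on the setting. Piezo2 was 4.36, 3.67, 2.82 and 3.21 against 0.833, 1.95, 2.11 and 2.15, a ratio of means of 2.0. Its log2 difference was 0.73 (SE 0.171, limma, adjusted p = 0.107). The digestion response summed to 80.5 to 113 in CS and 109 to 163 in RA venous cells, with 8 of 9 genes lower in CS. Its part in the venous differences was not tested.

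Piezo1, whose highest level was in venous cells, went the other way there: it was 3.01, 3.60, 3.31 and 3.24 in the CS mice and 4.37, 4.03, 3.94 and 3.90 in the RA mice. All CS mice lay below all RA mice, with a log2 difference of -0.24 (SE 0.10) that did not pass the test (limma, adjusted p = 0.295). In venous cells 3.54% of the 7706 genes had every CS mouse below every RA mouse, as Piezo1 did, 5.87% had every CS mouse above every RA mouse, as Scn7a and Piezo2 did, and 0.0649% were called higher. Venous Trpv4 overlapped between groups (log2 difference -0.00128, SE 0.0837), and F1 held the lowest value, 0.188.

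In arterial endothelial cells Scn7a was 0.680, 0.782, 0.464 and 0.626 per 10,000 in the CS mice, and 0.194, 0.340, 0 and 0.0831 in the RA mice. The groups did not overlap, and the means were 0.638 ± 0.133 and 0.154 ± 0.147 (SD, n = 4). Scn7a was higher in CS by 0.51 (SE 0.0952) on the log2 scale (limma, adjusted p = 0.0252), among the 0.341% of 7920 genes called higher there. The pseudocount of 1 shrinks differences at such levels: the ratio of means was 4.13, and with a pseudocount of 0.1 the log2 difference was 1.72 (1.04 for arterial Piezo2 and 1.30 for venous Scn7a). The level was low and rested on 40 to 173 cells per mouse: Scn7a was found in 12.5% of arterial cells of CS mice and 6.48% of those of RA mice. It thus passed the filter of 10% of cells only through the group in which it was high, so the call is not independent of the filter.

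The call for arterial Scn7a did not hold without C2, C5, D5 or M3 (adjusted p 0.0827, 0.0886, 0.0764 and 0.0576), although the log2 difference stayed at 0.47 to 0.51. It was also lost when the level of B and T cells was subtracted (difference 0.41, adjusted p = 0.356), with values centred within span classes (0.41, adjusted p = 0.0826) and without a filter on genes (0.51, adjusted p = 0.26). In the 640 of 730 arterial cells that held no fibroblast or Schwann cell marker the difference was 0.36 (adjusted p = 0.182). The 4 Schwann cell markers summed to 0.0763 to 1.05 per 10,000 in arterial cells of CS mice and 0 to 0.0573 in those of RA mice, and 1 of the 4, Sox10, stood at 0 in all arterial cells. The 6 fibroblast markers summed to 0.108 to 0.512 and 0 to 0.441. The 4 venous markers summed to 39.2 to 45.2 in CS and 38.0 to 49.5 in RA arterial cells, above the arterial markers and below the 65.0 to 89.8 of venous cells, while the venous marker Slc6a2 alone stood at 0.0344 in arterial and 15.9 in venous cells. Other marker sums did not overlap between groups in arterial cells: the 4 arterial markers summed to 7.14 to 9.66 in CS and 4.39 to 7.04 in RA mice, the 5 gCap markers to 12.8 to 14.1 and 16.2 to 21.8, and the 4 pan-endothelial markers to 49.6 to 52.5 and 57.4 to 65.5. All 4 arterial markers were higher in CS. Of the gCap markers 2 were higher and 3 lower, and of the pan-endothelial markers 1 was higher and 3 lower. None of these markers was called. Scn7a is a known gene of nonmyelinating Schwann cells, and beyond the values given here the part of such cells in the arterial level was not tested. Piezo2 in arterial cells was 1.26, 0.646, 0.694 and 0.705 against 0.460, 0.543, 0.141 and 0.319, without overlap, with a log2 difference of 0.42 (SE 0.117, limma, adjusted p = 0.111). Every CS mouse lay above every RA mouse for 4.32% of genes in arterial cells.

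In lymphatic endothelial cells, which line vessels without blood flow, the groups overlapped for all 4 channels. Scn7a, found in 3.90% of CS and 1.96% of RA cells and so below the filter, was 0.378, 0.0539, 0.182 and 0.0161 in the CS mice and 0, 0.0174, 0.0218 and 0 in the RA mice. Piezo2 was 1.31, 0.980, 1.01 and 1.47 in the CS mice and 1.09, 0.338, 1.41 and 1.33 in the RA mice, and its log2 difference was 0.13 (SE 0.161, limma, adjusted p = 0.814). Piezo1 and Trpv4 also overlapped (0.05, SE 0.133, and 0.01, SE 0.0871). In these cells 0% of 8281 genes were called higher in CS (0 genes in either direction, with 782 at an unadjusted p under 0.05 in limma, the one tool run), and 2.97% had every CS mouse above every RA mouse.

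Whether the CS effect differs in size between endothelial types cannot be read from these values. Effects on the scale of log2(level + 1) are smaller where a level is low, and an exact two-sided permutation test over the 8 mice cannot go below a p of 0.0286, which leaves little room for adjustment over the 24 comparisons of types and channels. In that permutation test 3 of the 24 had an unadjusted p under 0.05, and the smallest adjusted p was 0.229. Within the 4 sequencing lanes, each with 1 CS and 1 RA mouse, the Scn7a difference ran from 0.32 to 1.70 in aerocytes, 0.13 to 0.83 in arterial, 0.25 to 0.99 in venous and 0.023 to 0.46 in lymphatic cells, and that of Piezo2 from 0.27 to 0.99, 0.13 to 0.63, 0.37 to 1.55 and -0.28 to 0.58. Except in lymphatic cells, these signs were fixed by the lack of overlap between the groups. The lane of C2 and F1 gave the largest Scn7a difference in gCap cells (2.22 on the log2 scale, against 0.67 to 1.21 in the other lanes).

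**Figure D5:**
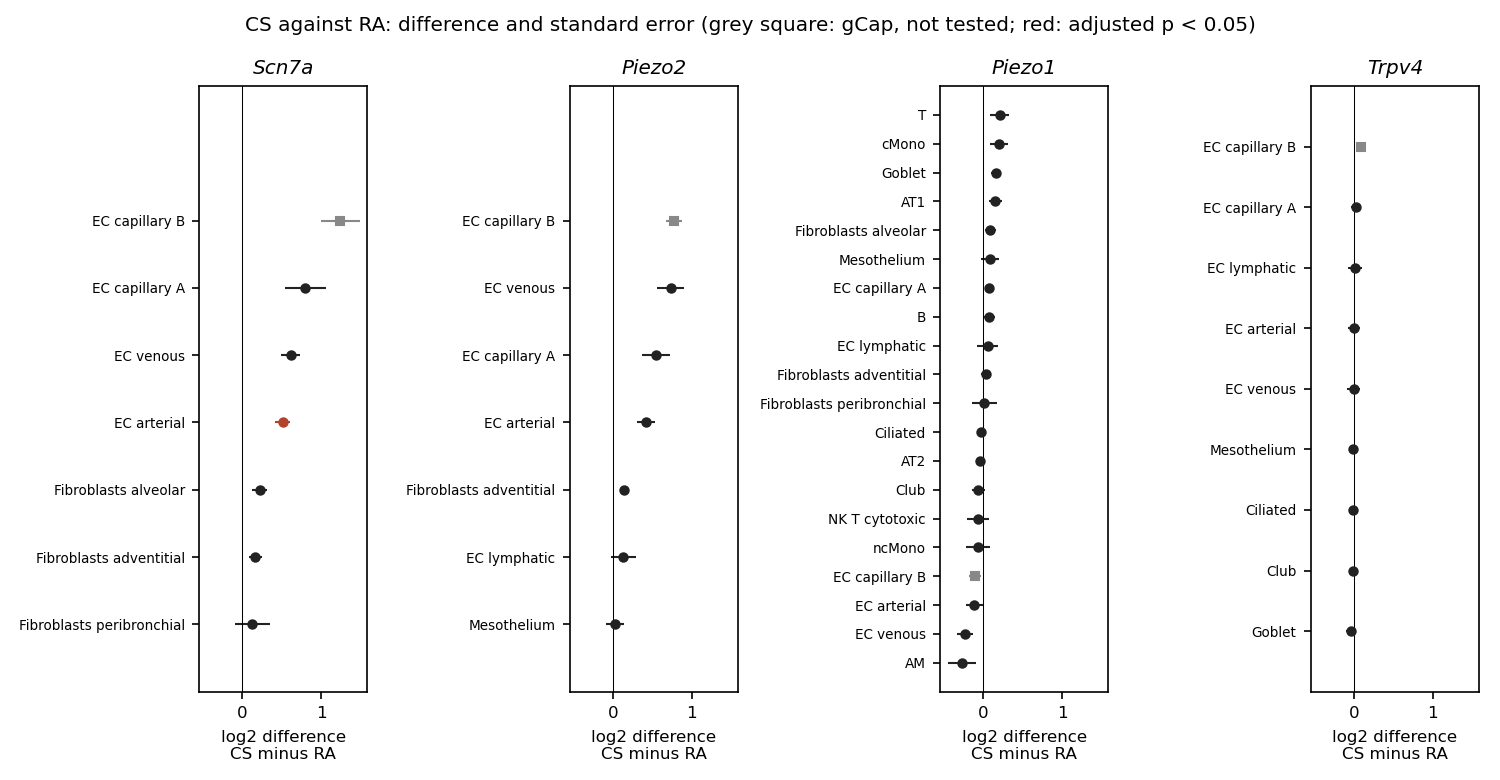
Log2 difference (CS minus RA) with its standard error for each channel in the cell types where it passed the filter, plus Trpv4 in gCap cells. Grey squares are gCap cells, which were not tested, and red marks an adjusted p under 0.05; only Scn7a in arterial cells (0.51) is red, and that gene passed the filter there only through the CS group.

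Outside the endothelium the channels were tested 24 times in 15 cell types and called 0 times, with 3 at an unadjusted p under 0.05 (limma). Scn7a in alveolar fibroblasts, the matrix-making cells of the alveolar wall, was 3.31, 3.18, 3.66 and 3.89 in CS mice and 2.78, 3.20, 2.98 and 2.55 in RA mice. Its log2 difference was 0.22 (SE 0.0972, limma, adjusted p = 0.21). In adventitial fibroblasts Scn7a was 2.41 to 2.53 in CS and 2.04 to 2.29 in RA mice, without overlap (0.16, SE 0.0783, limma, adjusted p = 0.235), and 7.9% of genes in these cells had every CS mouse above every RA mouse. Piezo2 in adventitial fibroblasts had a log2 difference of 0.14 (SE 0.0462, limma, adjusted p = 0.105), and it too passed the filter only through the CS group (12.6% of CS and 9.89% of RA cells). Piezo1 was tested in 19 types outside gCap, where its log2 difference ran from -0.27 in alveolar macrophages to 0.20 in T cells. In goblet cells Piezo1 was 0.324 to 0.390 in CS and 0.129 to 0.299 in RA mice (0.16, SE 0.0574, limma, adjusted p = 0.30), and 7.24% of genes in these cells had every CS mouse above every RA mouse. Trpv4 was tested in 8 types, with differences between -0.04 and 0.03 and a smallest adjusted p of 0.642.

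In cells that should not make Scn7a, its low level was also higher in CS mice: 0.171 ± 0.0801 against 0.0807 ± 0.047 per 10,000 in B cells and 0.121 ± 0.0121 against 0.0608 ± 0.0698 in T cells (SD, n = 4). Piezo2 stood at 0.208 ± 0.0936 against 0.138 ± 0.0976 in B cells and 0.140 ± 0.0298 against 0.0465 ± 0.0298 in T cells. Over all 22 types the CS mean of Scn7a exceeded the RA mean in 20, and that of Piezo2 also in 20, against 11 for Piezo1 and 10 for Trpv4. These counts include gCap cells, and outside them Scn7a and Piezo2 were each tested in only 6 types. No share over all genes stands beside the counts, so nothing is read from them. With the mean level of B and T cells subtracted in each mouse, the gCap difference was 1.24 for Scn7a and 0.77 for Piezo2. Those levels were low beside the gCap levels, so the subtraction could change little. The 115 cells labelled erythrocytes, too few per mouse to be tested, held more of both. Scn7a stood there at 5.03 ± 1.57 in CS and 1.42 ± 1.88 in RA mice, with overlap. Piezo2 stood there at 2.67 ± 1.09 and 1.47 ± 1.83, also with overlap. The part of free RNA was not tested.

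The genes that surround these channels in their pathways were read in gCap cells from 6 lists of 109 genes in all, 108 of which had a row in the matrix and 45 of which passed the filter. Of the 45, 5 rose and 3 fell in CS, where 412 and 260 of all 6556 genes did, and their median log2 difference was 0.07, beside 0.01 for all genes. None of the 8 was called with the sequencing lane as a block, where 0 of 6556 genes were called (2121 at an unadjusted p under 0.05). None was called with values centred within span classes, with the level of B and T cells subtracted, or without C2, D2, D5 or F3. All 8 were called with the transcripts' sex as a term.

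Among the TRP channels and polycystins, 4 of 25 genes passed the filter and 2 rose. They were the polycystins Pkd1 and Pkd2, partners in the mechanosensory complex of the primary cilium, by 0.20 (SE 0.0553, limma, adjusted p = 0.0478) and 0.24 (SE 0.0596, limma, adjusted p = 0.0379). The other 2 did not pass. Of the 14 voltage-gated sodium channel subunits, only the accessory subunit Scn3b passed the filter. It was 1.39 to 1.75 per 10,000 in CS mice and 0.133 to 1.28 in RA mice, with a log2 difference of 0.59 (SE 0.176, limma, adjusted p = 0.0559). Among the 16 other mechanically gated channels and Piezo partners 4 passed the filter and 0 were called, the nearest being Mdfic, an auxiliary subunit of Piezo channels (0.15, limma, adjusted p = 0.0719), Tmem63b (0.06) and Stom (0.15).

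Of 14 tested genes of calcium-activated potassium channels, Nos3 and calcium handling, 1 rose and 1 fell. Atp2a3, the SERCA3 pump that returns calcium to the endoplasmic reticulum, rose by 0.48 (SE 0.121, limma, adjusted p = 0.0385). The CS mice held 2.21 to 2.66 per 10,000, and the RA mice 0.846 to 1.82. No potassium channel of this list passed the filter in gCap cells.

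Of 15 tested flow sensing genes, 2 rose and 2 fell. Kdr, a receptor of the junctional flow sensing complex, rose by 0.31 (SE 0.0681, limma, adjusted p = 0.0301), and Adam10, a protease that cuts Notch, rose by 0.26 (SE 0.0477, limma, adjusted p = 0.0259). The flow-induced transcription factors Klf2 and Klf4 fell, by 0.60 (SE 0.141, limma, adjusted p = 0.0336) and 0.48 (SE 0.124, limma, adjusted p = 0.0403). Klf2 was 10.4 to 15.0 per 10,000 in CS mice and 16.8 to 22.7 in RA mice. Klf2 and Klf4 span 2624 and 5324 bases, in the class up to 10 kb, and fell together with the immediate-early genes of the digestion response, whose part in this was not tested. Of the 7 tested sodium sensing partners of Scn7a 0 were called: the scaffold Dlg1 had a log2 difference of 0.18 (limma, adjusted p = 0.0572).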

How the data were processed

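Lungs of 8 mice were dissociated with collagenase and elastase and run on 10x Genomics 3′ v3 chips. Per the labels and the study's methods, the authors aligned reads with STAR 2.7.3a (STARsolo) to GRCm38.p6 (GENCODE M22, with eGFP and tdTomato added), summed spliced and unspliced transcripts, removed cells of low depth or high mitochondrial content and subtracted free RNA with SoupX. The deposited matrix is called normalized but holds estimated counts of transcripts (UMIs) per cell after that subtraction, not scaled to a common total. The deposited cell table gives each cell's mouse, type and percent of mitochondrial transcripts, and the authors' types were used. Of 41106 cells, 1025 labelled multiplets and 7 labelled as cycling were left out; no doublet caller was run.

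Counts were scaled to 10000 per cell and averaged per type and mouse. In each of 22 types with 3 or more mice per group of at least 20 cells, log2(mean + 1) was tested with limma 3.58.1 (trend) in R 4.3.3 over the genes seen in at least 10% of CS or of RA cells; p-values were adjusted within the type (Benjamini-Hochberg) and called under 0.05. Count models were not used, since the counts are no longer whole. In a simulation of gCap values with a log2 change of 1 in 200 of 6556 genes, 194 were recovered. That change is large beside the rises seen in CS. Among the 416 genes of over 200 kb in gCap cells, the 95th percentile of the log2 difference was 0.53. Falls in CS were not ranked in this way. Noise was drawn separately for each gene, without shifts that the genes of a mouse share. The simulation therefore does not give the power for smaller changes or the stability of the calls. Mice are the replicates, and replicate numbers only name them. Promoters are RefSeq's, spans GENCODE M21's. Figures and tables used Python 3.11.15, numpy 2.4.6, pandas 2.3.3, scipy 1.17.1 and matplotlib 3.10.9.

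The channels, lists and tests were chosen with earlier results of these data known. Genes named are the 4 channels, in each list those called in gCap cells or else the 3 with the smallest p, the 3 genes most like each channel by Pearson's r, and markers a check turned on. Values of some genes that this rule names are not reported here. Alternatives were another pseudocount, other filters, summed counts, lane or sex as a term, other scalings, thinned cells, cells of other kinds left out, and each mouse left out. Chosen after seeing the data were sex by Xist and Ddx3y, subtraction of the level in B and T cells, removal of gCap cells with aerocyte markers and centring within span classes.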

Additional observations from a re-analysis of the deposited data

Results flagged for a closer look

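Among 40 groups of 4 mice (each channel in 5 endothelial types, CS and RA), 4 held 1 mouse that lay apart, judged by Dixon's test on the gap to its nearest neighbour as a share of the group's range. About 1 in 20 such groups would be picked out by chance. Piezo2 in arterial endothelial cells of CS mouse C2 was 1.26 per 10,000, while the other CS mice held 0.646 to 0.705. Piezo2 in venous endothelial cells of RA mouse F1 was 0.833, while the other RA mice held 1.95 to 2.15. Trpv4 in aerocytes of CS mouse D2 was 0.364, while the other CS mice held 0.594 to 0.621. Trpv4 in venous endothelial cells of RA mouse F1 was 0.188, while the other RA mice held 0.509 to 0.574.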

How the results depend on the processing

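The highest cell type of Scn7a, Piezo1 and Piezo2 was the same with RA mice alone, summed counts or thinned cells, while that of Trpv4 was venous cells in thinned cells. The sign of the Scn7a and Piezo2 differences in gCap, aerocytes, arterial and venous cells held in every alternative run. In gCap cells these differences chose the set. Other filters on genes, and lane or sex as a term, left the estimates as they were, so the sign could not turn there. With 1 mouse left out it could not turn either, since the groups did not overlap in these types. Nothing is read from the signs. Spearman's rank correlation kept 0, 1, 0 and 1 of the 3 genes most like Scn7a, Piezo1, Piezo2 and Trpv4. The gCap difference of Piezo1 moved by more than the spread between mice with the level of B and T cells subtracted (-0.28). Piezo1 was found in 25.8% of B cells and 33.5% of T cells. Its mean level there was higher in CS than in RA mice (0.803 against 0.708 and 1.16 against 0.874), with overlap between the groups. These cells thus do not serve as a background for Piezo1, and no fall in gCap cells is read from -0.28. The gCap differences also moved by more than that spread for Piezo2 with a pseudocount of 0.1 (1.03) or centring within span classes (0.61). They did so for Trpv4 with a pseudocount of 0.1 (0.46). Leaving out 1 mouse gave 0.95 to 1.38 for Scn7a, 0.68 to 0.83 for Piezo2, -0.18 to -0.07 for Piezo1 and 0.07 to 0.11 for Trpv4. The channels called in endothelial types other than gCap numbered 1 as reported, 0 with a filter of 25% of cells, with no filter, with thinned cells, without cells with fibroblast or Schwann cell markers, with span centring and with B and T levels subtracted, 2 with sex by transcripts, and 0 to 2 when 1 mouse was left out. Outside the endothelium it stayed 0.

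The reported fits did not hold lane as a replicate block. Within lanes, correlations of deviations lay between -0.27 and 0.39 in gCap cells and between -0.25 and 0.28 in aerocytes. These correlations do not test for an effect of lane. With the block, 0 genes were called by limma in gCap cells (2121 at an unadjusted p under 0.05), 64 in aerocytes, 35 in arterial, 2 in venous and 4 in lymphatic cells, and 0 genes of the 6 lists. Reported counts in this order were 672, 135, 53, 10 and 0, and 8 of the lists. With no filter, which tests more genes, they were 0 in gCap (4176 unadjusted), 0 in aerocytes (2814), 2 in arterial and 0 in venous cells (1982). From summed counts they were 1249, 274, 88, 3 and 11. With sex by transcripts they were 1277 in gCap, 220 in aerocytes and 33 in venous cells, with 17 of the lists, and labelled sex gave 1 in venous cells. Span centring gave 249, 85, 20 and 1 in gCap, aerocytes, arterial and venous cells and 0 of the lists, and subtracting B and T levels gave 2, 0, 1 and 0, with 0 of the lists. Without cells with aerocyte markers 212 genes and 2 of the lists were called in gCap cells. Without cells with fibroblast or Schwann cell markers 26 were called in arterial and 5 in lymphatic cells. Venous cells gave 3 with a pseudocount of 0.1, 17 with the 25% filter and 5 with quantile scaling, and lymphatic cells 7 with the 25% filter and 2 with thinned cells. Leaving out 1 mouse gave 0 (without D5) to 657 genes in gCap cells, 12 to 408 in aerocytes, 7 to 93 in arterial, 1 to 7 in venous and 0 in lymphatic cells, and 0 to 10 of the lists. The causes were not tested.

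No difference that turned direction had passed the test. Trpv4 turned in arterial cells with a pseudocount of 0.1 (-0.078), summed counts (-0.13), quantile scaling (-0.022), median centring (-0.00048), span centring (-0.038), B and T levels subtracted (-0.015) and without C2, F1 or F3 (range without 1 mouse -0.088 to 0.047). It turned in aerocytes with span centring (-0.0093) and without M3 (-0.0027 to 0.086), in lymphatic cells with quantile scaling (-0.0073), median centring (-0.00036), span centring (-0.037), B and T levels subtracted (-0.0049) and without D2, M1 or M3 (-0.042 to 0.051), and in venous cells with a pseudocount of 0.1 (0.047), summed counts (0.012) and without C5, F3, M1 or M3 (-0.096 to 0.039). Piezo1 turned in thinned arterial (0.073) and lymphatic cells (-0.17) and in lymphatic cells with B and T levels subtracted (-0.034). Since B and T cells do not serve as a background for Piezo1, nothing is read from the last of these. Piezo2 turned in lymphatic cells with summed counts (-0.18), thinned cells (-0.20) and without F3 (-0.058 to 0.23). Trpv4 was found in under 10% of gCap cells. Scn7a was found in too few of the 730 arterial cells to be tested with the 25% filter or in thinned cells.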
